A study of Homo sapiens with 4 samples.

Results

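The amino acid response genes of the transcription factor ATF4 were examined in RKO and HCT116, cell lines from human colorectal cancers, after EZH2 knockdown. EZH2 is the enzyme of Polycomb repressive complex 2 that methylates histone H3 and so silences genes. The 6 genes were ASNS, CHAC1, TRIB3, PSAT1, PCK2 and AARS, which are 6 of the 7640 genes in the deposited expression table. They were taken by symbol, and they had been picked because they were lower after knockdown in earlier results of these same data, so their knockdown changes are given as a description, with no test. Messenger RNA was sequenced in 4 libraries, 1 per group: RKO cells carrying a short hairpin RNA (shRNA) against EZH2 (titled shE2, here shEZH2), RKO cells carrying a control shRNA (NC), HCT116 shEZH2 cells and HCT116 NC cells. All 4 groups had received a hairpin by lentivirus, and per the study's methods the transduced cells were selected with puromycin as stable lines. The labels leave the identity of the EZH2 hairpin unstated, so it may or may not be the same in RKO and HCT116. With 1 library per group there were no replicates within a line, and p-values over the 4 libraries measure only the spread between these samples.

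ATF4 is the effector of the integrated stress response. Kinases that sense amino acid shortage, unfolded proteins, viral RNA or haem deficiency phosphorylate the initiation factor eIF2, which lowers general translation while it raises translation of the ATF4 mRNA. ATF4 then pairs with C/EBP proteins on composite C/EBP-ATF response elements and induces enzymes that make amino acids, transporters that import them, tRNA synthetases that load them, and feedback regulators that shut the response down. In tumour cells this program supplies asparagine, serine and glutathione precursors when nutrients are scarce.

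The C/EBP-ATF element was searched in the promoter windows of RefSeq (build GRCh38.p14), which run from 250 bases before to 50 bases after each annotated transcript start. The letters searched were TGATGNAA on both strands, where N is any base. All 6 genes were matched to the promoter table (AARS under its current symbol AARS1), and 3 of them held these letters, against 4.46% of the 27305 genes in the table. The stretches around the 3 matches are shown because this is the element through which ATF4 is known to act on the amino acid response. Each is printed 5′ to 3′ on the strand of its gene, with the matched letters in capitals. The ASNS stretch is at chr7:97872424-97872521 (minus strand), the CHAC1 stretch at chr15:40953221-40953314 (plus strand) and the AARS stretch at chr16:70289641-70289738 (minus strand).
ASNS: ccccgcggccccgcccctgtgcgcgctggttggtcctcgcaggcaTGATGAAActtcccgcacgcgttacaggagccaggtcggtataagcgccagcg
CHAC1: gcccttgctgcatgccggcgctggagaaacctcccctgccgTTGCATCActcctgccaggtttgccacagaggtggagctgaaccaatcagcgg
AARS: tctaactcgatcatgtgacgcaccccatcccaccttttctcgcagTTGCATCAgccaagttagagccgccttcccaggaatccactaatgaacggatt

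Counted from the transcript start, with bases before it negative, the ASNS match ran in the direction of the gene at positions -68 to -61. The matches of CHAC1, at -209 to -202, and of AARS, at -187 to -180, were the same 8 letters and read on the opposite strand. No match was found in the windows of PSAT1 on chromosome 9, PCK2 on chromosome 14 or TRIB3 on chromosome 20, which says only that these letters are not in those windows. The cyclic AMP response element TGACGTCA and the unfolded protein response element TGACGTGG, searched on both strands, were in 0 of the 6 genes, against 2.25% and 0.927% of all genes.

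**Figure D1:**
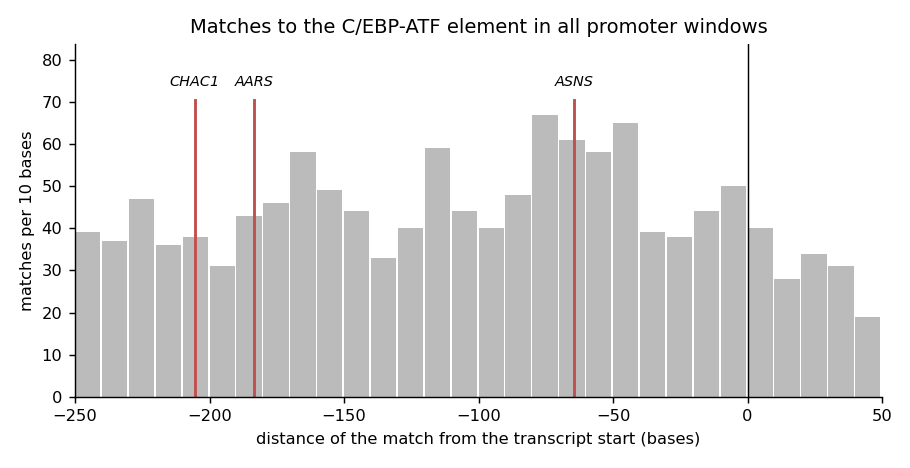
Distance of each match to the C/EBP-ATF letters from the annotated transcript start, in bases (x axis), as the number of matches per 10 bases over all 35116 promoter windows (grey bars, y axis). Red lines mark the 3 matches in the amino acid response genes, with ASNS at -68 to -61 and AARS and CHAC1 farther upstream.

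The knockdown was checked first. Levels are in FPKM, the number of sequenced fragments per unit of transcript length, corrected for the depth of each library. EZH2 had 6.61 FPKM in RKO shEZH2 cells, against 33.61 FPKM in RKO NC cells, and 12.61 FPKM in HCT116 shEZH2 cells, against 31.49 FPKM in HCT116 NC cells. The expected counts of the listed genes totalled 7898152 to 8185776 in a library. The table held 7 of 11 epithelial markers. In RKO, EPCAM, CDH1, KRT19 and KRT20 were at or near 0, with at most 0.10 FPKM, but KRT18 had 187.91 FPKM in RKO shEZH2 and 154.04 FPKM in RKO NC cells, and KRT8 had 7.63 and 7.05 FPKM there. HCT116 expressed EPCAM, CDH1, KRT8, KRT18 and KRT19, with EPCAM at 156.36 FPKM in shEZH2 and 176.54 FPKM in NC cells. CDX2, an intestinal transcription factor, was detected in both lines, with 9.24 FPKM in RKO shEZH2 and 6.91 FPKM in RKO NC cells. Of the fibroblast, immune and endothelial lists the table held 1 marker each. COL1A1 was at most 4.05 FPKM and VWF at most 0.13 FPKM, while CD68, a lysosomal protein used as a macrophage marker, had 271.43 FPKM in RKO shEZH2 and 283.57 FPKM in RKO NC cells, against 3.54 FPKM in HCT116 shEZH2 and 3.24 FPKM in HCT116 NC cells.

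All 6 amino acid response genes were lower in the shEZH2 library than in the NC library of each line. In bulk RNA, fewer expressing cells and less RNA per cell cannot be told apart. Over the 6139 measured genes (mean of at least 1 FPKM), 43.6% had a negative change in RKO, 46.6% in HCT116 and 25.1% in both. A gene was counted as lower or higher past 1.2-fold on the log2(FPKM + 1) scale. The study's methods give this fold for raised genes and a stricter log2 limit for lowered ones, which none of the 6 genes passed on this scale. Adding 1 to the FPKM makes changes of weak genes smaller. With 0.1 added instead, CHAC1 passed that limit in both lines (-0.752 in RKO and -0.925 in HCT116) and TRIB3 in HCT116 (-0.800). By the 1.2-fold count 6 of 6 genes were lower in RKO, where 10.9% of measured genes were lower and 22.7% higher. In HCT116 6 of 6 were lower, where 9.66% of measured genes were lower and 12.7% higher. Of all measured genes, 2.66% were lower in both lines, 3.99% were higher in both and 1.65% moved in opposite directions. The 6 genes had been picked on this contrast, so nothing is read from these counts. Summed FPKM of the 6 genes was 148.36 in RKO shEZH2 and 194.95 in RKO NC cells, and 149.33 in HCT116 shEZH2 and 207.81 in HCT116 NC cells.

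**Figure D2:**
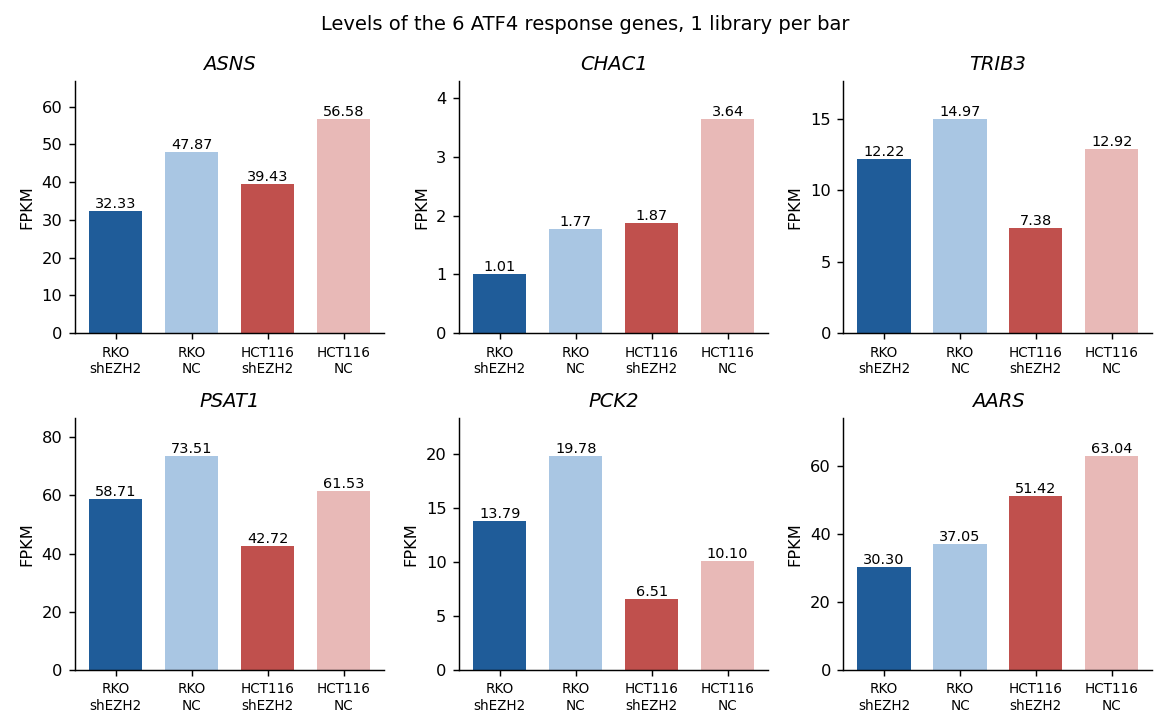
Level of each of the 6 ATF4 response genes in FPKM (y axis, from 0), with 1 bar per library: RKO shEZH2, RKO NC, HCT116 shEZH2 and HCT116 NC. In every panel the shEZH2 bar is below the NC bar of the same line. The drop ran from 48.6% for CHAC1 in HCT116 (1.87 FPKM in shEZH2 against 3.64 FPKM in NC cells) to 18.2% for AARS in RKO (30.30 FPKM in shEZH2 against 37.05 FPKM in NC cells).

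ASNS (gene ID 440) is asparagine synthetase, which makes asparagine from aspartate and glutamine. Its level was 32.33 FPKM in RKO shEZH2 and 47.87 FPKM in RKO NC cells, and 39.43 FPKM in HCT116 shEZH2 and 56.58 FPKM in HCT116 NC cells. Both shEZH2 libraries were below both NC libraries. The log2 changes were -0.55 in RKO and -0.51 in HCT116. The ratio of depth-scaled expected counts, shEZH2 over NC, was 0.653 in RKO (exact binomial 95% interval 0.608 to 0.702) and 0.706 in HCT116 (0.658 to 0.757). These intervals, and those that follow, cover counting error only. ASNS ranked 124 from the lowest change of 6139 measured genes in RKO and 103 in HCT116.

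PSAT1 (gene ID 29968) is phosphoserine aminotransferase, the second enzyme of serine synthesis. It had 58.71 FPKM in RKO shEZH2 and 73.51 FPKM in RKO NC cells, and 42.72 FPKM in HCT116 shEZH2 and 61.53 FPKM in HCT116 NC cells, so that both shEZH2 libraries were again below both NC libraries. The log2 changes were -0.32 in RKO and -0.52 in HCT116. The count ratio was 0.803 in RKO (0.761 to 0.847) and 0.695 in HCT116 (0.652 to 0.741). These intervals did not overlap, as was the case for 31.6% of the measured genes. PCK2 (gene ID 5106), the mitochondrial phosphoenolpyruvate carboxykinase, turns oxaloacetate into phosphoenolpyruvate. Its level was 13.79 FPKM in RKO shEZH2 and 19.78 FPKM in RKO NC cells, and 6.51 FPKM in HCT116 shEZH2 and 10.10 FPKM in HCT116 NC cells, and both RKO libraries were above both HCT116 libraries. Its log2 changes of -0.49 in RKO and -0.56 in HCT116 came with count ratios of 0.680 (0.612 to 0.755) and 0.647 (0.552 to 0.758), and the RKO interval lay within that of HCT116.

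AARS (gene ID 16) is alanyl-tRNA synthetase, which loads alanine onto its tRNA. The level was 30.30 FPKM in RKO shEZH2 and 37.05 FPKM in RKO NC cells, and 51.42 FPKM in HCT116 shEZH2 and 63.04 FPKM in HCT116 NC cells. The log2 changes were -0.28 in RKO and -0.29 in HCT116, just past the 1.2-fold threshold of 0.26. With 1890 expected counts in RKO shEZH2 and 2340 in RKO NC cells, and 2912 in HCT116 shEZH2 and 3596 in HCT116 NC cells, the count ratio was 0.818 (0.769 to 0.869) in RKO and 0.816 (0.777 to 0.857) in HCT116.

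TRIB3 and CHAC1 belong to the feedback and stress branches of the response. TRIB3 (gene ID 57761) is a pseudokinase that binds ATF4 and restrains it. It had 12.22 FPKM in RKO shEZH2 and 14.97 FPKM in RKO NC cells, and 7.38 FPKM in HCT116 shEZH2 and 12.92 FPKM in HCT116 NC cells, with both shEZH2 libraries below both NC libraries. Its log2 change was -0.27 in RKO, just past the threshold, and -0.73 in HCT116, rank 30 from the lowest of 6139 on the log2(FPKM + 1) scale. The count ratio was 0.819 in RKO (0.727 to 0.921) and 0.571 in HCT116 (0.493 to 0.663). The intervals of the lines did not overlap for TRIB3 either, so that 2 of the 6 genes had this, close to the 31.6% of all measured genes. With 1 library per group a difference in knockdown change between the lines cannot be tested against replicate spread.

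CHAC1 (gene ID 79094) is a gamma-glutamylcyclotransferase that breaks down glutathione. It was the weakest of the 6 genes, with 1.01 FPKM in RKO shEZH2 and 1.77 FPKM in RKO NC cells, and 1.87 FPKM in HCT116 shEZH2 and 3.64 FPKM in HCT116 NC cells. These rested on 36 expected counts in RKO shEZH2 and 63 in RKO NC cells, and on 60 in HCT116 shEZH2 and 102 in HCT116 NC cells. The count ratio was 0.579 (0.373 to 0.885) in RKO and 0.593 (0.424 to 0.823) in HCT116. On the log2(FPKM + 1) scale its changes were -0.46 in RKO and -0.69 in HCT116, and with a pseudocount of 0.1 they were -0.75 and -0.92, since the pseudocount of 1 makes the change of a weak gene look smaller. In HCT116 the FPKM ratio, 0.514, was lower than the count ratio. The effective transcript length that the estimator used was 1.15 times as long in the shEZH2 library as in the NC library, outside the middle 90% of 1901 genes at 1 to 5 FPKM (0.926 to 1.08). In RKO that length ratio was 1.01.

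**Figure D3:**
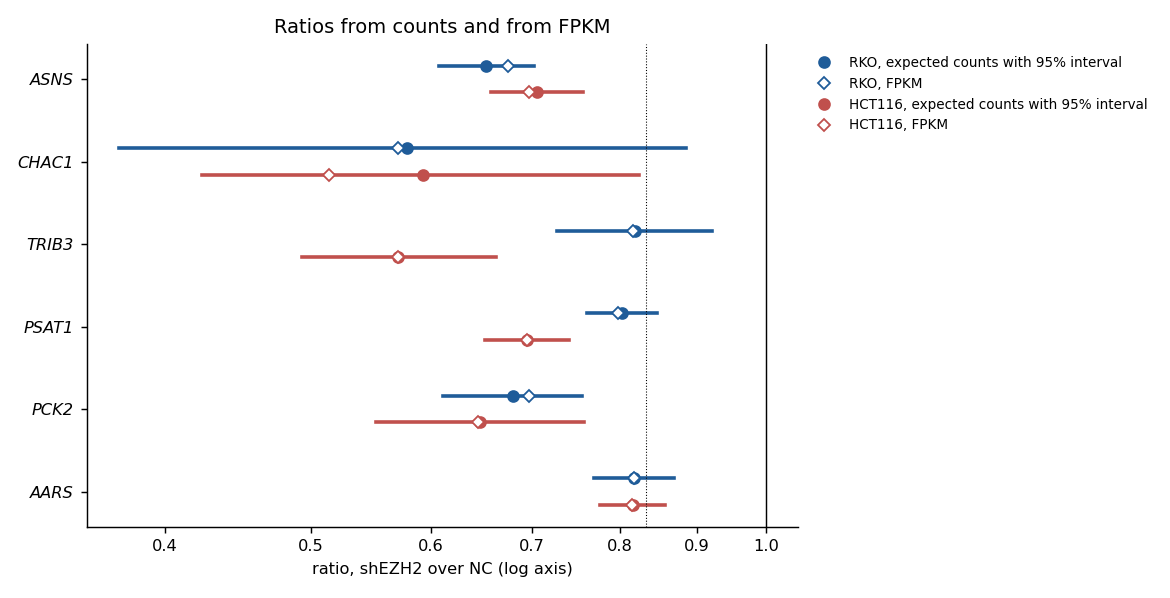
Ratio of the shEZH2 to the NC library for each of the 6 genes (log axis), in RKO (blue) and HCT116 (red). Filled circles are ratios of depth-scaled expected counts with exact binomial 95% intervals, open diamonds are FPKM ratios, the dotted line is 1.2-fold lower and the solid line is no difference. All intervals lie below 1, as do those of 22.3% of measured genes in RKO and 19.8% in HCT116, and the 6 genes were picked on this contrast. The intervals of TRIB3 and PSAT1 do not overlap between the lines, nor do those of 31.6% of measured genes.

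The median change of the 6 genes was -0.39 in RKO and -0.54 in HCT116, beside a median of 0.01 over all measured genes in each line. AARS in both lines and TRIB3 in RKO were the genes just past 1.2-fold. At 1.5-fold on the log2(FPKM + 1) scale 0 of 6 were lower in RKO and 2 of 6, TRIB3 and CHAC1, in HCT116. By the ratio of depth-scaled counts, CHAC1 (0.579) and ASNS (0.653) in RKO and PCK2 (0.647) in HCT116 were past 1.5-fold as well. GC content of the 6 transcripts was 42.3% (PSAT1) to 62.6% (CHAC1), with a median of 57.2% against 48.8% over measured genes. PSAT1 and ASNS, at 47.0%, were below that value and the other 4 genes above it. With the trend of change on GC content subtracted, TRIB3 had -0.22 and AARS had -0.24 in RKO, so that 4 of 6 genes remained past 1.2-fold there, while all 6 did in HCT116. Under median-of-ratios scaling TRIB3 had -0.42 and AARS had -0.44 in RKO. The shares of all measured genes at 1.5-fold and with the GC trend subtracted are not given here, so nothing is read from those counts.

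**Figure D4:**
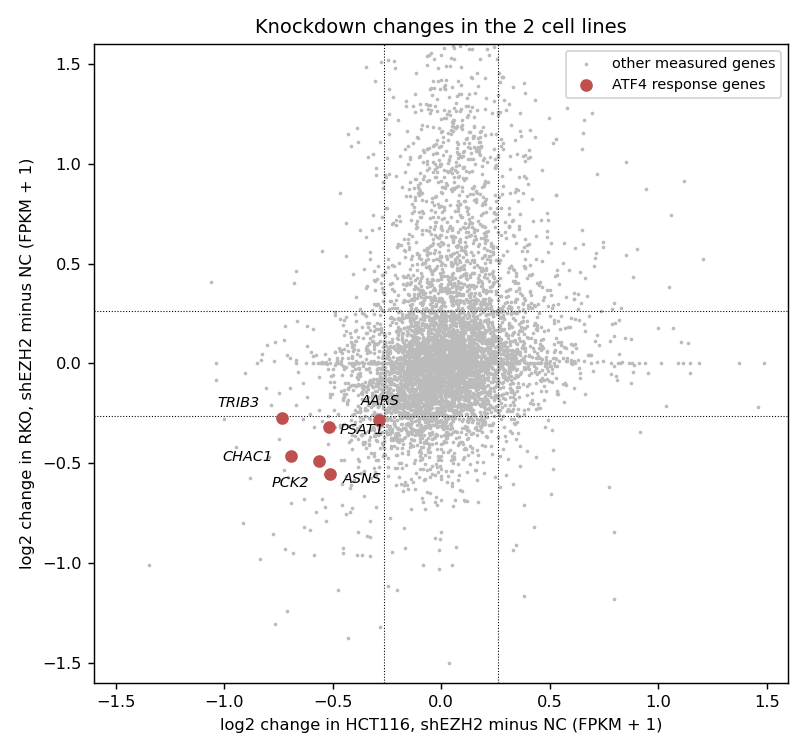
Log2 change of FPKM + 1, shEZH2 minus NC, in HCT116 (x axis) and RKO (y axis). Grey points are the other measured genes (106 measured genes lie outside the axes), red points the 6 ATF4 response genes and dotted lines 1.2-fold. The red points lie in the lower left corner, between -0.73 and -0.29 in HCT116 and between -0.55 and -0.27 in RKO.

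The mRNA of ATF4 itself was abundant in all 4 libraries. It had 259.74 FPKM in RKO shEZH2 and 290.50 FPKM in RKO NC cells, and 273.68 FPKM in HCT116 shEZH2 and 310.77 FPKM in HCT116 NC cells. The log2 changes of -0.16 in RKO and -0.18 in HCT116 were inside 1.2-fold. Under median-of-ratios scaling they were -0.32 in RKO, past 1.2-fold, and -0.20 in HCT116. ATF4 is controlled mainly through its translation, which was not measured here. Of 10 measured transcription factors and regulators of the stress response, 2 were lower and 4 higher in RKO, and 2 lower and 0 higher in HCT116, with medians of -0.01 and -0.08. Under median-of-ratios scaling 5 were lower and 2 higher in RKO (median -0.16), with no share of all measured genes under it given. CEBPG, a dimer partner of ATF4, was the 1 gene lower in both, with 13.43 FPKM in RKO shEZH2 against 18.80 FPKM in RKO NC cells and 11.44 FPKM in HCT116 shEZH2 against 13.95 FPKM in HCT116 NC cells, or -0.46 and -0.27.

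ATF3, a stress-induced repressor, was lower in RKO at 4.04 FPKM in RKO shEZH2 against 6.46 FPKM in RKO NC cells (-0.57), and had a change of 0.03 in HCT116. CEBPB, another C/EBP protein, was higher in RKO (0.44) and lower in HCT116 (-0.27, just past the threshold). DDIT3, which encodes CHOP, had -0.25 in RKO and 0.01 in HCT116. PPP1R15A, the phosphatase subunit that reverses eIF2 phosphorylation, was higher in RKO (0.27) and had 0.14 in HCT116. Of the regulators upstream of eIF2, the kinase EIF2AK3 had 0.13 in RKO and 0.10 in HCT116. GCN1, a coactivator of the amino acid sensing kinase, had -0.26 and -0.18, and IMPACT, an inhibitor of that kinase, had 0.31 and -0.15. With the GC trend subtracted the RKO change of IMPACT turned to -0.13. OMA1, the mitochondrial protease that relays stress from mitochondria, had 0.42 in RKO and -0.02 in HCT116.

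Among 9 measured genes of tRNA loading, 1 was lower in RKO (median -0.12) and 6 in HCT116 (median -0.28), and 0 were higher in either. CARS, the cysteinyl-tRNA synthetase, was lower in both, with -0.28 in RKO and -0.33 in HCT116. YARS, which loads tyrosine, had 82.79 FPKM in RKO shEZH2 against 98.09 FPKM in RKO NC cells (-0.24) and 62.75 FPKM in HCT116 shEZH2 against 81.52 FPKM in HCT116 NC cells (-0.37). WARS, which loads tryptophan, had -0.08 in RKO and -0.31 in HCT116, and XPOT, a tRNA export receptor, had -0.17 and -0.29. TARS, which loads threonine, had 0.11 and -0.24. GARS (-0.08 and -0.28) and NARS (-0.02 and -0.28), which load glycine and asparagine, made up the 6 lower in HCT116.

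Of 12 measured amino acid transporters, 0 were lower and 1 was higher in RKO (median 0.03), and 6 were lower and 1 higher in HCT116 (median -0.27). The measured set rests on the mean over all 4 libraries, so it can hold genes silent in RKO. SLC7A8 and SLC1A3 had 0 FPKM in both RKO libraries, so their RKO change was 0 by construction. SLC7A5 and SLC3A2 form the heterodimer that carries large neutral amino acids such as leucine. SLC7A5 had 83.76 FPKM in RKO shEZH2 and 82.80 FPKM in RKO NC cells, and 89.75 FPKM in HCT116 shEZH2 and 125.74 FPKM in HCT116 NC cells, and SLC3A2 had changes of 0.05 in RKO and -0.46 in HCT116. SLC7A11, the cystine transporter, had 0.72 FPKM in RKO shEZH2 against 0.61 FPKM in RKO NC cells and 3.65 FPKM in HCT116 shEZH2 against 5.19 FPKM in HCT116 NC cells (-0.41). SLC1A5, the main glutamine importer, had 97.42 FPKM in RKO shEZH2 against 116.36 FPKM in RKO NC cells (-0.25, inside 1.2-fold) and 85.36 FPKM in HCT116 shEZH2 against 118.89 FPKM in HCT116 NC cells (-0.47). SLC38A2, another neutral amino acid transporter, was the 1 higher gene in RKO, with 0.48 there and -0.06 in HCT116. With the GC trend subtracted its RKO change was 0.06, inside 1.2-fold. The glutamate transporter SLC1A3 was the 1 higher gene in HCT116 (0.46), listed at 0 in both RKO libraries.

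Of 10 measured enzymes of serine, glycine and one-carbon metabolism, 3 were lower and 0 higher in RKO and 2 were lower and 1 higher in HCT116, with a median of -0.17 in each. PHGDH, the first enzyme of serine synthesis, had 56.95 FPKM in RKO shEZH2 against 71.49 FPKM in RKO NC cells (-0.32) and a change of -0.18 in HCT116. PSPH, the last enzyme of that pathway, had -0.27 in RKO and -0.22 in HCT116, beside -0.32 and -0.52 for PSAT1, which acts between them. SHMT1, which passes a carbon from serine to folate, had -0.32 and -0.17. MTHFD2, the mitochondrial folate enzyme, had -0.14 in RKO and was lower in HCT116, with 85.00 FPKM in HCT116 shEZH2 against 117.53 FPKM in HCT116 NC cells (-0.46). The other genes past 1.2-fold in HCT116 were TYMS, thymidylate synthase (-0.27), and GLDC, glycine decarboxylase (0.31), at most 0.03 FPKM in RKO.

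Of 18 other measured ATF4 targets, 5 were lower and 3 higher in RKO, and 4 lower and 3 higher in HCT116. DDIT4, an inhibitor of mTORC1, was lowest in RKO, with 12.17 FPKM in RKO shEZH2 and 27.52 FPKM in RKO NC cells (-1.11), beside -0.25 in HCT116. CTH, which makes cysteine, had -0.63 in RKO and -0.15 in HCT116, and ARG2, the mitochondrial arginase, had -0.53 and -0.08. PYCR1, which makes proline, was the 1 gene of this list lower in both, with -0.41 and -0.27, and GADD45A, a growth arrest gene, was the 1 gene higher in both, with 0.34 and 0.28. TNFRSF10B, a death receptor, had 0.44 in RKO and 0.09 in HCT116. The remaining calls, some of them outside the rule for naming and given after their values were seen, were GPT2 lower (-0.30) and GDF15 higher (0.67) in RKO, and LONP1 (-0.29), STC2 (-0.31) and GDF15 (-0.37) lower and FAM129A (0.34) and KDM7A (0.35) higher in HCT116.

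Across these 5 lists 59 genes were measured, of which 11 were lower and 8 higher in RKO (median -0.04), and 20 were lower and 5 higher in HCT116 (median -0.18). The RKO figures include genes at or near 0 FPKM in both RKO libraries, such as SLC1A3, SLC7A8, STC2, FAM129A and GLDC. Such genes could hardly change there, so the RKO and HCT116 figures are not on an equal footing. Under median-of-ratios scaling, which moved the median measured gene of RKO to -0.07, the RKO split was 27 lower and 5 higher (median -0.18), and genes lower in both lines numbered 10 in place of 3. The 3 were CEBPG, CARS and PYCR1. The shares of all measured genes past 1.2-fold under that scaling are not given here, so the larger counts stand without a background. The RKO counts of these lists thus depend on the scaling, and with it the RKO changes of TARS (-0.05), SLC7A5 (-0.14) and SLC3A2 (-0.10) turned negative, while those of GADD45A (0.18), PPP1R15A (0.12) and CHAC2 (0.13) came inside 1.2-fold. For a change common to both lines, edgeR's quasi-likelihood test with the line as a block called 0 of 59 at an adjusted p of 0.05, and 4 lower (SLC1A5, PYCR1, YARS and MTHFD2) and 0 higher at an unadjusted p of 0.05. Of all 7409 genes tested, 0.0% were called, and an unadjusted p of 0.05 was passed by 147 higher and 131 lower genes. By limma 0 of 6139 were called (168 higher and 143 lower by unadjusted p), and DESeq2 called 4, which were EZH2, FASN and HMGB3 lower and DUSP6 higher.

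**Figure D5:**
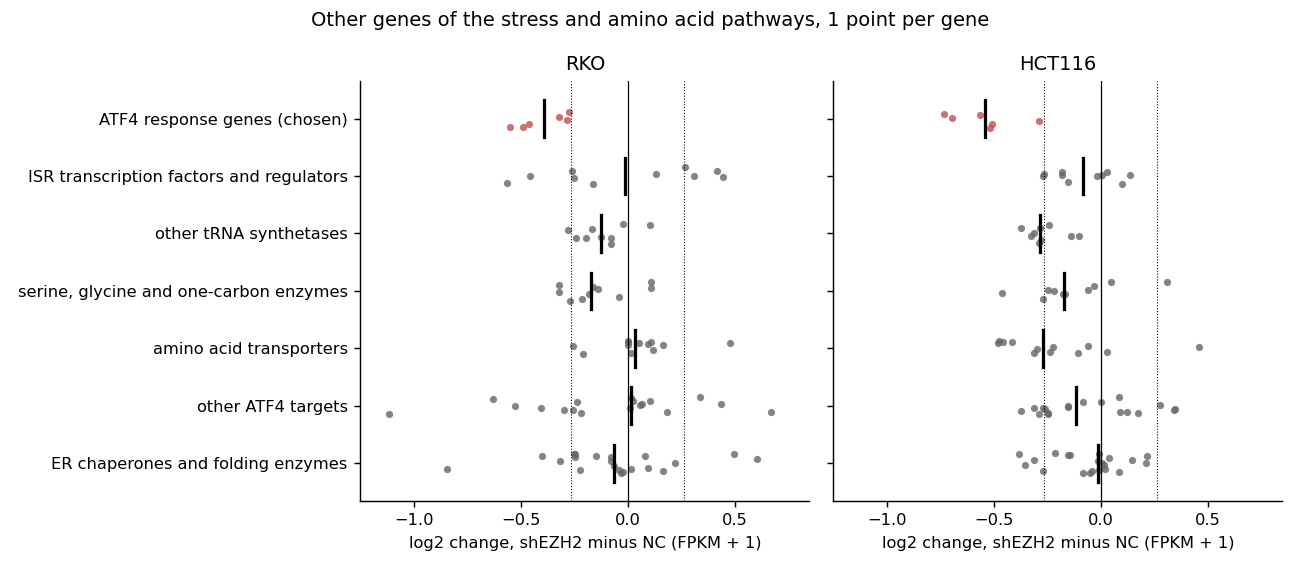
Log2 change of FPKM + 1, shEZH2 minus NC (x axis), for each measured gene (1 point per gene) of the 6 ATF4 response genes and of 6 other lists (rows), in RKO (left) and HCT116 (right). Black bars are medians and dotted lines 1.2-fold. Among tRNA loading genes the median is -0.12 in RKO and -0.28 in HCT116, and among amino acid transporters it is 0.03 and -0.27. Some RKO points are genes at or near 0 FPKM there, which could hardly change.

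Chaperones and folding enzymes of the endoplasmic reticulum, which answer to the other arms of the unfolded protein response, were counted next. Of 21 measured, 3 were lower and 2 higher in RKO (median -0.07), and 4 were lower and 0 higher in HCT116 (median -0.01). Under median-of-ratios scaling 8 were lower and 2 higher in RKO (median -0.22), and 4 in place of 2 were lower in both lines. These counts too stand without the shares of all measured genes under that scaling. HSPA5, the main chaperone of that compartment, was chosen after its values were seen and had 216.69 FPKM in RKO shEZH2 against 221.74 FPKM in RKO NC cells (-0.03) and 184.80 FPKM in HCT116 shEZH2 against 191.15 FPKM in HCT116 NC cells (-0.05). CANX and PDIA3 handle glycoprotein folding. CANX (-0.85 in RKO and -0.38 in HCT116) and PDIA3 (-0.40 and -0.27) were lower in both lines. XBP1, the transcription factor of the IRE1 arm, had -0.22 and -0.35, and DNAJB9 had 0.60 and 0.14. The other calls were HYOU1 lower (-0.32) and HSP90B1 higher (0.50) in RKO and SDF2L1 lower (-0.31) in HCT116.

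TRIB1, a pseudokinase related to TRIB3, was higher in both lines, with 42.51 FPKM in RKO shEZH2 against 25.99 FPKM in RKO NC cells (0.69) and 202.03 FPKM in HCT116 shEZH2 against 162.48 FPKM in HCT116 NC cells (0.31). TRIB2 had -0.16 in RKO and -0.22 in HCT116. CHAC2, a relative of CHAC1, was higher in RKO (0.28) and had -0.20 in HCT116. With the GC trend subtracted the RKO change of CHAC2 turned to -0.31, so its direction there depends on the processing. Of 10 enzymes of asparagine, glutamate and glutathione metabolism, 1 was lower and 1 higher in RKO (median 0.03), and 0 were lower and 1 higher in HCT116 (median 0.05). GLS2, a glutaminase, was the lower one, at 8.11 FPKM in RKO shEZH2 against 12.79 FPKM in RKO NC cells (-0.60), and had 0.23 FPKM in HCT116 shEZH2 against 0.19 FPKM in HCT116 NC cells. GCLM, a subunit of the enzyme that starts glutathione synthesis, had 0.26 and 0.04, inside 1.2-fold.

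Of the other lists, the C/EBP-ATF letters were in 4 of 8 matched tRNA loading genes (CARS, GARS, NARS and TARS). They were in 6 of 11 matched amino acid transporters (SLC1A3, SLC1A4, SLC1A5, SLC38A1, SLC3A2 and SLC7A1). SLC1A4 and SLC7A1 are outside the rule for naming. The HCT116 changes of these 6 transporters ran from -0.47 (SLC1A5) to 0.46 (SLC1A3). The letters were also in 2 of 10 regulators (ATF3 and CEBPG) and in 0 of 20 chaperones. Among the matched genes of the 5 lists, the 14 with the letters had 3 lower and 0 higher in RKO (median -0.05) and 7 lower and 1 higher in HCT116 (median -0.26), and the 35 without had 5 lower and 6 higher in RKO (median 0.00) and 10 lower and 3 higher in HCT116 (median -0.15). Over 134 measured genes with the letters, the 6 genes left out, 14.9% were lower and 17.2% higher in RKO, against 10.5% and 23.6% of 4799 genes without them. In HCT116 15.7% were lower and 15.7% higher, against 9.09% and 12.8%.

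The level of the 6 genes in RKO against HCT116 was not used to pick them. It was tested with edgeR, with 2 libraries per line and the knockdown as a block, which left 1 residual degree of freedom. That residual is how far the knockdown changes differ between the lines. As the 6 genes were picked on the knockdown contrast, the p-values of this test may not be fully independent of the picking. Of all 7409 genes tested, 64.4% differed between the lines at an adjusted p of 0.05 (27.0% higher and 37.4% lower in RKO), so that a call here was the usual case. By that test 3 of the 6 genes were higher in RKO. Unless another scale is named, the log2 differences below are edgeR coefficients on scaled counts. They are not the log2 ratios of the FPKM means printed beside them, and the 2 scales differ between the lines. PCK2 averaged 16.8 FPKM in RKO and 8.31 FPKM in HCT116, with both RKO libraries above both HCT116 libraries and a log2 difference of 1.35 (edgeR adjusted p = 0.0034). PSAT1 averaged 66.1 FPKM in RKO and 52.1 FPKM in HCT116, a log2 difference of 0.71 (edgeR adjusted p = 0.012), although RKO shEZH2 at 58.71 FPKM was below HCT116 NC at 61.53 FPKM and the NC libraries alone differed by 0.25 on the log2(FPKM + 1) scale. TRIB3 averaged 13.6 FPKM in RKO and 10.2 FPKM in HCT116, a log2 difference of 0.79 (edgeR adjusted p = 0.023), but its adjusted p was 0.096 with DESeq2 and 0.10 with limma, and RKO shEZH2 at 12.22 FPKM was below HCT116 NC at 12.92 FPKM. The NC libraries alone differed by 0.20 for TRIB3.

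The remaining 3 genes did not pass that test. AARS averaged 33.7 FPKM in RKO and 57.2 FPKM in HCT116, with no overlap of the lines, and its log2 difference of -0.41 had an edgeR adjusted p of 0.061, against 0.046 with median-of-ratios size factors, 0.026 with DESeq2 and 0.0045 with limma. CHAC1 averaged 1.39 FPKM in RKO and 2.76 FPKM in HCT116. Its FPKM values did not overlap, but narrowly, with 1.77 in RKO NC and 1.87 in HCT116 shEZH2. Its expected counts, before depth scaling, did overlap, with 63 and 60 in these 2 libraries. Its effective transcript length was 1.15 times as long in RKO NC as in HCT116 NC. The log2 difference was -0.50, with an edgeR adjusted p of 0.21 and a limma adjusted p of 0.025. ASNS averaged 40.1 FPKM in RKO and 48.0 FPKM in HCT116, and its log2 difference was 0.12 by edgeR (adjusted p = 0.56) and -0.26 by limma. The scales differ here, since the median measured gene had a log2 difference of 0.06 between the lines in the edgeR fit and -0.25 on the log2(FPKM + 1) scale that limma used. Relative to those medians, ASNS stood at 0.06 by edgeR and -0.01 by limma, AARS at -0.47 and -0.50, and PCK2 at 1.29 and 1.19.

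The order of the 6 genes by FPKM was the same in both libraries of a line. In RKO it ran PSAT1, ASNS, AARS, PCK2, TRIB3 and CHAC1, and in HCT116 it ran AARS, PSAT1, ASNS, TRIB3, PCK2 and CHAC1. The ranges over the shEZH2 and NC libraries of a line overlapped for the neighbours ASNS and AARS and for PCK2 and TRIB3 in RKO, and for AARS and PSAT1, PSAT1 and ASNS, and TRIB3 and PCK2 in HCT116. PSAT1 stood clear of ASNS in RKO, with at least 58.71 FPKM for PSAT1 and at most 47.87 FPKM for ASNS. CHAC1 was below the other 5 genes in every library.

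The measured genes whose pattern over the 4 libraries was nearest to the mean pattern of the 6 genes were DNAAF3, RAB26, SLC1A5, TNFRSF11A and IMPA2, with Euclidean distances of 0.09 to 0.16 on the centred log2(FPKM + 1) scale. DNAAF3, a factor for the assembly of ciliary dynein arms, had 16.46 FPKM in RKO shEZH2 against 21.90 FPKM in RKO NC cells and 16.49 FPKM in HCT116 shEZH2 against 22.50 FPKM in HCT116 NC cells. SLC1A5 was the 1 gene of the pathway lists among the 5. The 6 genes themselves lay farther from their mean, at ranks 63 (ASNS) to 2392 (PCK2). The widest distances were those of PCK2, AARS and CHAC1, which differed most in level between the lines on the log2(FPKM + 1) scale.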

How the data were processed

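Human HCT116 and RKO cells carrying an EZH2 or a control shRNA were profiled by mRNA sequencing (TruSeq RNA kit, MGISEQ-2000), with 1 library in each of the 4 groups. Mapping by the authors used Bowtie, and RSEM gave the gene levels. The submitters' processing notes name Bowtie2, BWA, hg19 and GRCh37. The methods name a mouse build, and which build was mapped to is unsettled. No tool version was stated in what was used here.

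Per gene and library the authors deposited an FPKM value, rounded to 2 decimals, and an expected count, which RSEM can split between genes or isoforms that share reads. The deposited log2 ratios of FPKM hold the authors' own comparison and were not used. The table held 7640 genes by an unstated rule, and 13 symbols turned into dates were restored through gene IDs.

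Changes were differences of log2(FPKM + 1), shEZH2 minus NC, over 6139 genes with a mean of at least 1 FPKM. Count ratios were scaled by relative depth, taken from count over FPKM (0.988 in RKO and 0.992 in HCT116), with exact binomial 95% intervals. Expected counts rounded to whole numbers were fitted with edgeR 4.0.16 (quasi-likelihood, TMM, terms for line and shRNA, Benjamini-Hochberg) in R 4.3.3. Alternatives were DESeq2 1.42.0, limma 3.58.1 on log2(FPKM + 1), median-of-ratios and TMM scaling, no filter on low counts, a mean of at least 5 FPKM, a pseudocount of 0.1, 1.5-fold, a lowess GC trend (span 0.3, GENCODE release 29 transcripts, 99.1% of measured genes matched) and NC libraries alone. The edgeR step was also run on simulated counts, with changes made alike in both lines. The outcome of that run is not given here, and it cannot speak for changes that differ between the lines. Promoter windows came from RefSeq on GRCh38.p14, a build other than that of the processing notes, and serve the printed sequences and the motif counts.

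The 6 genes and the gene lists were chosen with earlier results of these data known. The genes named were the 6, EZH2, the measured genes of the stress regulator and paralog lists, up to 4 highest and 4 lowest by mean change of each other list, and the 5 nearest patterns. Not every gene taken by this rule is reported.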

Additional observations from a re-analysis of the deposited data

Results flagged for a closer look

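Of the 59 measured genes of the 5 lists, 2 passed 1.2-fold in opposite directions in the lines, and 0 of the 21 chaperones and folding enzymes did. CEBPB, a C/EBP transcription factor, was higher in RKO, with 17.18 FPKM in shEZH2 and 12.37 FPKM in NC cells (log2 change 0.44). It was lower in HCT116, with 20.11 FPKM in shEZH2 and 24.43 FPKM in NC cells (-0.27). With the GC trend subtracted its HCT116 change was -0.20, inside 1.2-fold. GDF15, a stress-induced cytokine that was named after its values were seen, was higher in RKO, with 16 FPKM in shEZH2 and 9.68 FPKM in NC cells (0.67), and lower in HCT116, with 39.37 FPKM in shEZH2 and 51.27 FPKM in NC cells (-0.37). Over all measured genes 1.65% moved past 1.2-fold in opposite directions, so nothing is read from the count of 2. The line by knockdown difference of these genes was not tested, as each group had 1 library.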

How the results depend on the processing

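All 6 genes kept a negative change in each line under pseudocounts of 1 and 0.1, median-of-ratios and TMM scaling, the GC trend, and the ratio of depth-scaled counts, which was added after seeing the data. At 1.5-fold on the log2(FPKM + 1) scale the count of lower genes was 0 in RKO and 2 in HCT116, where fewer genes can pass by construction. Ratios of depth-scaled counts put further genes past that fold. Median-of-ratios scaling gave 10 list genes lower in both lines in place of 3, with no share of all measured genes under it given. DESeq2 called 4 genes for a common change where edgeR called 0. ASNS, RKO minus HCT116, turned to -0.26 under limma and -0.24 in the NC libraries alone, which are on the FPKM scale. On that scale TRIB3 was 0.43 (limma) and 0.20 (NC alone) in place of 0.79, and PSAT1 0.35 and 0.25 in place of 0.71. Of the single-gene values recomputed, 70 held, 12 moved, 4 gained a call, 2 lost it and 2 turned direction. With 1 library per group no replicate could be left out, and CHAC1, at 36 to 102 counts per library, is the gene most limited by depth. The labels carry no replicate numbers, and the pairing by line is already a term of the edgeR fit.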
